A study of Mus musculus with 4 samples.

Results

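Oligodendrocytes that carried high Opalin RNA and little Ptgds RNA were examined in single-cell RNA sequencing data of sorted TdT+ forebrain cells. A cell was counted among them when it had 200 to 6000 genes, under 30% mitochondrial UMIs, at least 1 UMI of Mog, at least 3 of Opalin, under 2 of Enpp6, 0 of Klk6, under 20 of Ptgds and at most 1 UMI of Gad1 and Gad2 together. A UMI (unique molecular identifier) marks one captured RNA molecule. Of 26987 cells in the series, 26201 passed the limits on genes and mitochondrial UMIs, 8541 of these were Mog-positive by the Mog and Gad limits, and 2712 met the whole rule. These 2712 cells are called Opalin cells here.

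The cells came from mice at postnatal day 18 to 20, of both sexes. All mice carried Nkx2-1Cre, which drives recombination in progenitors of the medial ganglionic eminence (MGE) and their descendants, and the Ai14 reporter, which leaves recombined cells red with tdTomato (TdT). WT mice were Nkx2-1Cre:Grin1 wt/wt:Ai14 and null mice Nkx2-1Cre:Grin1 fl/fl:Ai14, so that Grin1, the obligate subunit of NMDA receptors, was deleted in the Cre lineage of the null mice. TdT+ cells were sorted by flow cytometry from frontal cortex and hippocampus of 10 WT and 6 null littermates, several animals pooled per session, in buffers with tetrodotoxin, APV and actinomycin D. There were 3 libraries of WT cortex, 3 of WT hippocampus, 2 of null cortex and 2 of null hippocampus. The 10x kit differed as well: chemistry version 2 for each replicate 1, version 3 for the others.

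Oligodendrocytes wrap axons in myelin, a stack of membrane rich in cholesterol and galactolipids and held together by proteins such as that of Mbp. Their precursors carry Pdgfra. Newly formed cells switch on Enpp6 and Bcas1, and myelinating cells then carry Opalin, Mog and Mag, while genes such as Klk6, Ptgds, Apod and Il33 mark later or regionally distinct mature states. Opalin is a transmembrane glycoprotein of the myelin sheath, Mog and Mag are surface proteins of its outermost and its innermost, axon-facing layers, Grb14 is a signalling adaptor and Tspan15 a tetraspanin that partners a membrane protease.

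The libraries yielded 153, 141 and 183 Opalin cells from WT cortex replicates 1, 2 and 3, and 734, 64 and 337 from WT hippocampus. Null cortex yielded 13 and 312, and null hippocampus 65 and 710, for replicates 1 and 2. No barcode of an Opalin cell occurred in more than 1 library. The median Opalin cell had 7047 UMIs and 2424 genes, and library medians ran from 3141 UMIs in WT hippocampus replicate 2 to 8816 in null hippocampus replicate 2. WT hippocampus replicate 2 stood apart in all its cells, with a median of 1479 UMIs against 2903 to 9508 in the other libraries. In null cortex replicate 1, with 13 cells, a single UMI was worth 13.9 CPM (the UMIs of a gene scaled to 1e6 UMIs of these cells in the library), so that low genes could not be read there.

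The rule fixed the levels of 7 genes, which are described without a test. Opalin cells held a median of 10 UMIs of Opalin (3 to 91) and 38 of Mog (1 to 157). Ptgds, a prostaglandin synthase, had a median of 1 UMI and was at 0 in 48.1% of the cells, and Enpp6, a choline phosphodiesterase, was at 0 in 78.9%. At the Opalin limit, 279 cells with 3 UMIs lay just inside and 362 with 2 UMIs just outside, and the pooled levels of Mag (5993 and 5837 CPM), Grb14 (1420 and 1346 CPM) and Tspan15 (463 and 402 CPM) were close on both sides. At the Ptgds limit, 84 cells with 15 to 19 UMIs were inside and 58 with 20 to 24 outside. A further 571 cells with 1 UMI of Enpp6 were inside, against 292 with 2 UMIs outside, and 111 cells with 1 UMI of Klk6 and 28 with 2 of Gad1 and Gad2 were outside.

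The markers were present in every library. Mag was at 5396, 8303 and 10110 CPM in WT cortex replicates 1, 2 and 3, at 5018, 7038 and 12171 in WT hippocampus, at 5087 and 9239 in null cortex and at 9179 and 10065 in null hippocampus. The 3 lowest values came from replicate 1 libraries, and the groups overlapped. Grb14 ranged from 1288 CPM in WT hippocampus replicate 2 to 2443 in null cortex replicate 2, and Tspan15 from 417 in null cortex replicate 1 to 976 in WT hippocampus replicate 3.

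Transcripts of myelin itself filled these cells. Mbp, whose protein holds the membrane layers together, was at 12638 ± 4518 CPM (SD, n = 10 libraries), the raft protein gene Mal at 11630 ± 3397 and Cnp, a cytoskeletal anchor, at 9390 ± 2672. Of the genes for myelin lipids, Ugt8a, which makes galactosylceramide, was at 2081 ± 555 CPM, the desaturase Scd2 at 1859 ± 307, and Hmgcs1 and Fdps of the cholesterol pathway at 1625 ± 274 and 748 ± 197. The lineage factor Olig1 was at 1747 ± 394 CPM. These are UMI counts at gene ends and were not divided by gene length.

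Genes of precursors and of glutamate receptors were low. Gpr17, a receptor of cells committed to differentiation, was the highest of 15 precursor genes listed and averaged 87.0 CPM. Among glutamate receptor subunits, the AMPA receptor gene Gria2 averaged 41.2 CPM and the kainate receptor gene Grik2 25.2. Grin1 itself gave 33 UMIs in all 2712 cells, at 0 to 13.9 CPM per library, and the highest value was the 1 UMI of null cortex replicate 1. In interneurons of the same libraries, chosen by at least 5 UMIs of Gad1 and Gad2, Grin1 was at 122 to 236 CPM in WT and 19.1 to 38.6 in null libraries, with no overlap. The deletion was thus visible in interneurons, and in the Opalin cells the level was too low in WT for a loss to be seen.

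The tdTomato transcript was detected in Opalin cells of every library, at means of 162 ± 95.3 CPM (SD, n = 3) in WT cortex, 207 ± 66.0 (n = 3) in WT hippocampus, 145 ± 86.5 (n = 2) in null cortex and 265 ± 120 (n = 2) in null hippocampus. Interneurons held 457 to 1057 CPM, above the 83.4 to 350 of Opalin cells. Defining markers of glutamatergic neurons, microglia and vessels were at or near 0: the 7, 10 and 9 genes of these lists summed to at most 11.4, 14.7 and 8.08 CPM in any library. The choroid plexus markers, without Enpp2, which oligodendrocytes also express, summed to 0 to 1.68 CPM in 9 libraries and to 59.6 in WT hippocampus replicate 3, where Ttr alone was at 58.9. RNA of interneurons was present. The 14 interneuron markers summed to 200 to 329 CPM in WT cortex, 73.7 to 154 in WT hippocampus, 139 to 189 in null cortex and 272 to 366 in null hippocampus, and these sums differed between the groups compared below. The 10 astrocyte markers summed to 29.6 to 125 CPM in 9 libraries and to 767 in null hippocampus replicate 1.

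Opalin cells were next set beside the other Mog-positive cells, split in order into cells with Enpp6 of at least 2 UMIs (2028 cells), with Klk6 (533), with Ptgds of at least 20 UMIs (428) and with Opalin under 3 UMIs (2840). Because the same counts define the classes, these differences are a description, and each fold is a ratio of mean CPM with 1 added to both means. Relative to Enpp6 cells, Opalin cells held more of the chemokine gene Cxcl12 (162 against 29.8 CPM, 5.30-fold), of the scaffold gene Slc9a3r2 (3.97-fold), of the CTP synthase gene Ctps (3.84-fold) and of Fam214a (3.66-fold), each higher in 9 of 9 libraries. They held less of Tnr and Bcan, both matrix proteins of precursors and young oligodendrocytes (31.7-fold and 20.4-fold lower), and less of Tubb2b, a tubulin of immature cells (19.1-fold lower). Both matrix genes were lower in all 9 libraries.

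Relative to Klk6 cells, the actin regulator Marcks was 8.08-fold higher, the protocadherin Pcdh7 6.68-fold, Tmem141 6.02-fold and Fam214a 5.32-fold, in 8 of 8 libraries. Pmp22, a myelin protein gene better known from Schwann cells, was 18.9-fold lower, the annexin Anxa5 8.79-fold and the calcium-binding S100b 8.76-fold lower, followed by Mgst3 (7.08-fold). Cells rich in Ptgds were the nearest to Opalin cells. Of the markers, they averaged more Mog (6094 against 5136 CPM), Grb14 (2077 against 1861) and Opalin (1878 against 1856). They averaged less Mag (6259 against 8161 CPM) and Tspan15 (555 against 661). These marker means are over 4 libraries for Ptgds cells and 10 for Opalin cells, so they do not compare matched libraries. The folds that follow use the same 4 libraries for both classes. Apart from Ptgds itself, only Glul, the glutamine synthetase gene, was more than 3-fold lower in Opalin cells among 1663 genes with 100 CPM or more in either class (440 against 1350 CPM, lower in 3 of 4 libraries). Marcks (8.80-fold) and the kinase gene Tnik (3.02-fold) were more than 3-fold higher, in 4 of 4 libraries. Next came Cpe, Col9a3 and Ninj1 (2.91, 2.46 and 2.35-fold higher) and, on the lower side, Atp1b3, Fam13c and Neat1 (2.50, 2.48 and 2.35-fold). Marcks thus averaged 1781 ± 1075 CPM in Enpp6 cells (SD, n = 9), 177 ± 116 in Opalin cells (n = 10), 19.9 in Ptgds cells (n = 4) and 24.1 in Klk6 cells (n = 8). S100b took another order, at 819 ± 425, 106 ± 52.2, 69.6 and 954 ± 558 CPM. Beside cells with low Opalin, the largest folds on the lower side included Ttr of choroid plexus, Cck, Mef2c and Pcp4 of neurons and Apoe of astrocytes. Of those 2840 cells, 1532 came from the shallow WT hippocampus replicate 2.

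**Figure D1:**
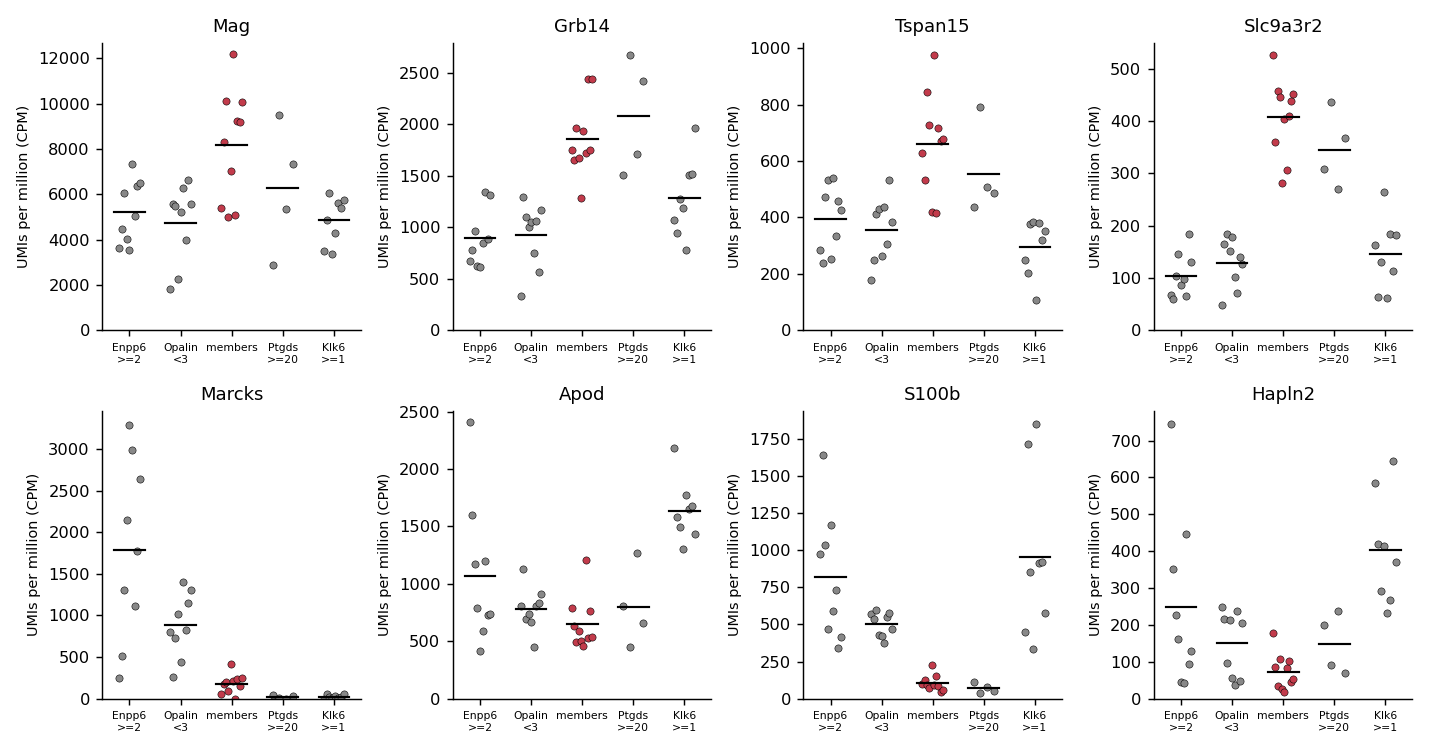
Levels of 8 genes in the 5 classes of Mog-positive cells, in CPM. Each point is 1 library and the line their mean, over 4 to 10 libraries per class. Opalin cells (red, marked members) hold the most Mag, Tspan15 and Slc9a3r2 on average, sit between Enpp6 cells and the Ptgds and Klk6 cells in Marcks, and are low in S100b beside Enpp6 and Klk6 cells.

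How many of the sorted cells were Opalin cells varied widely between libraries. They made up 12.0, 3.68 and 4.66% of the cells kept from WT cortex replicates 1, 2 and 3, 33.1, 1.39 and 10.7% from WT hippocampus, 7.34 and 12.1% from null cortex and 16.2 and 17.5% from null hippocampus. The WT hippocampus libraries spanned both the lowest and the highest share, and every pair of groups compared overlapped. The mean share was 15.1 ± 16.3% in WT hippocampus and 6.77 ± 4.54% in WT cortex (SD, n = 3 each), a difference of 8.30 percentage points (two-sided exact permutation test over libraries, p = 0.7). Null minus WT came to 1.79 points in hippocampus (exact p = 1) and 2.95 in cortex (exact p = 0.5), and 0.1 is the smallest p that either design allows.

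Without WT hippocampus replicate 1 the regional difference was -0.702 points, and without WT hippocampus replicate 2 the null difference in hippocampus was -5.05. Within replicates, the hippocampal share was above the cortical one by 21.1 points in replicate 1 and 6.09 in replicate 3 and below it in replicate 2 (-2.29). The null minus WT difference in the share of kept cells was negative in replicate 1 and positive in replicate 2 in both regions (-16.9 and 16.1 in hippocampus, -4.64 and 8.42 in cortex). Median depth over all cells was 1479 UMIs in WT hippocampus replicate 2, which had the lowest share, 4411 in WT hippocampus replicate 1, which had the highest, and 6519 in WT cortex replicate 3, and its part in the shares was not tested. With every cell thinned to 2000 UMIs, the share was 1.48% in WT hippocampus replicate 2. The differences in the share of kept cells were then 6.72 points for region, 4.13 for null in hippocampus and 3.21 for null in cortex (exact p = 0.7, 0.7 and 0.6). As a share of Mog-positive cells, the means were 33.7 ± 16.5% in WT cortex, 32.0 ± 27.2% in WT hippocampus, 43.1 ± 19% in null cortex and 44.0 ± 2.93% in null hippocampus (exact p = 1, 0.7 and 0.6 for region, null in hippocampus and null in cortex). Null minus WT within replicates 1 and 2 was -11.9 and 38.2 points of Mog-positive cells in hippocampus and 6.36 and 12.5 in cortex. After thinning it was 1.78 and 38.8 in hippocampus and 6.23 and 15.7 in cortex, with pooled differences of 20.4 (exact p = 0.3) and 14.3 (exact p = 0.5), and the groups still overlapped.

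**Figure D2:**
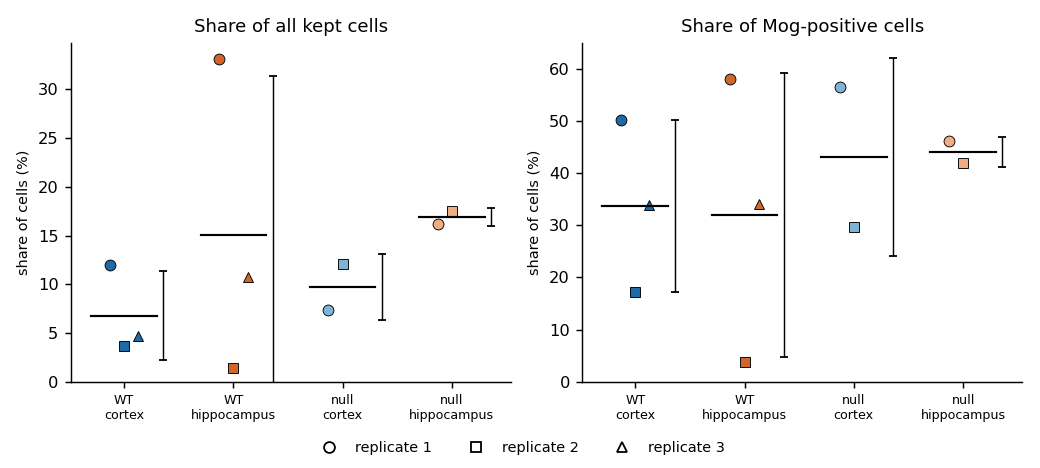
Opalin cells as a percentage of all kept cells and of Mog-positive cells; each point is 1 library, the horizontal line the group mean and the bar its SD, drawn from 0 where it would pass below. WT hippocampus runs from 1.39 to 33.1% of kept cells and covers the range of every other group.

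Within the Opalin cells, a single pattern joined many abundant genes. It was chosen after its values were seen and is given as a description. Pearson's r with Fth1, the ferritin heavy chain gene and one of the most variable transcripts, was computed across cells within each of the 7 libraries with at least 100 Opalin cells (2570 cells), over 732 genes with at least 200 CPM, on values that share each cell's depth. Mean r was 0.81 for Mal, 0.76 for Stmn1, 0.69 for the transferrin gene Trf, 0.68 for the chaperone gene Cryab and 0.66 for Apod. In the opposite direction stood Nfasc, the neurofascin gene of the paranodal junction (-0.71), Tmem141 (-0.69), Ctps (-0.64), Mag (-0.58), Ank3 (-0.57) and the deacetylase gene Sirt2 (-0.57). Each library gave r of the same sign for these genes.

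The 10 genes at each end gave every cell a log2 ratio, by which the cells of each library were split into tertiles. From the tertile rich in Nfasc and Mag (low) to the one rich in Mal and Fth1 (high), Nfasc went from 2514 to 370 CPM and Mal from 5298 to 16938, as the choice of genes fixes. Genes that did not enter the ratio changed with it in 7 of 7 libraries. Marcks was at 409 CPM in the low and 17.5 in the high tertile, Cxcl12 at 182 and 28.0, and Gpr17 at 176 and 26.6. In the other direction, S100b went from 27.4 to 222 CPM, Hapln2, a link protein of nodal matrix, from 10.3 to 202, and Hcn2, a pacemaker channel subunit, from 24 to 188. Of the genes of newly formed cells, Bcas1 also rose, from 231 to 307 CPM, and so did Enpp6, limited by the rule, from 10.5 to 62.0. Mog (4939 and 5285 CPM) was higher in the high tertile in 4 of 7 libraries, and tdTomato (186 and 192) in 3.

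The low tertile was also the deeper one in 7 of 7 libraries, for example with a median of 7476 against 5128 UMIs in WT cortex replicate 1, and the part of depth in the pattern was not tested. The library medians of the log2 ratio ran from 0.68 to 2.65 in Opalin cells, from 2.68 to 3.6 in Klk6 cells (8 libraries) and from -0.60 to 3.50 in Enpp6 cells (9 libraries). By group the medians of Opalin cells were 1.29 to 2.52 in WT cortex, 0.68 to 2.65 in WT hippocampus, 2.05 to 2.54 in null cortex and 1.12 to 1.77 in null hippocampus, and all but the 2 null groups overlapped.

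**Figure D3:**
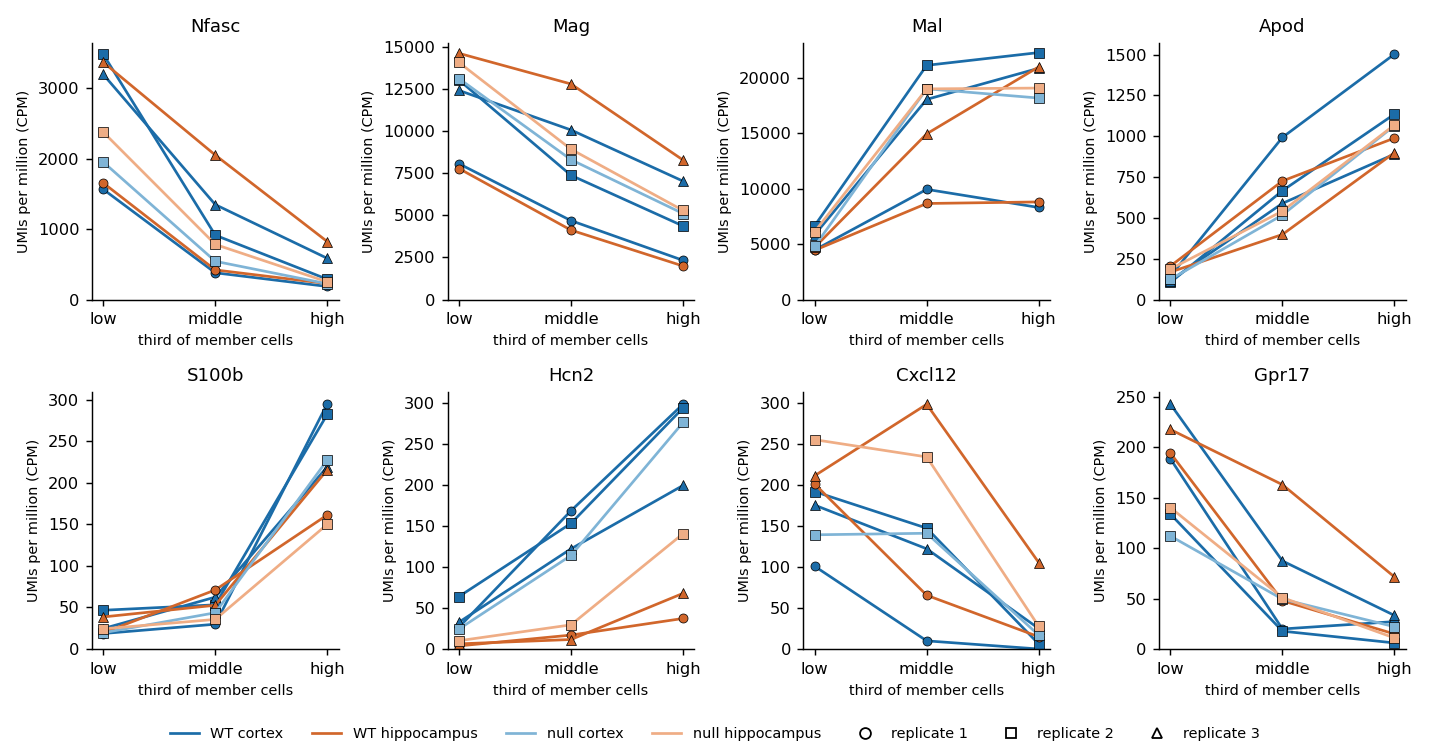
Levels in CPM in the low, middle and high tertile of Opalin cells of 7 libraries, ordered by the log2 ratio of genes that go with Fth1 to genes that go against it; each line is 1 library. Nfasc, Mag, Mal and Apod entered the ratio, and S100b, Hcn2, Cxcl12 and Gpr17 did not; S100b and Hcn2 are higher and Cxcl12 and Gpr17 lower in the high tertile of all 7.

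Cortical and hippocampal Opalin cells of WT mice were then compared, on counts summed per library. By edgeR's quasi-likelihood test, 0 of 7530 genes passed (Benjamini-Hochberg adjusted p below 0.01, with a change of 0.1 or more in natural-log units), with 99 at an unadjusted p under 0.05, while DESeq2 called 3, Hcn2, Npy and Sst. Same-numbered cortical and hippocampal libraries deviated together, and with the replicate number as a block 42 genes passed (percent_called 0.558%), 11 of them higher (0.146%) and 31 lower (0.412%) in hippocampus. All but 1 of the 42 had the same direction in all 3 replicate pairs, which their selection by this fit largely fixes. In the null libraries, which did not enter this test, 34 of the 42 (81.0%) had the same direction between regions, against 55.9% of all 7530 genes.

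Hcn2 (chromosome 10, 79716634 to 79736108, GRCm38, protein coding) was the clearest difference. It was at 147, 169 and 110 CPM in WT cortex and at 17.2, 19 and 26 in WT hippocampus. All cortical libraries were above all hippocampal ones, which held for 2.56% of the genes tested, and the cortical mean was 6.86-fold higher. The log2 change was -2.76 (SE 0.348, adjusted p = 0.0554, edgeR), and -2.67 with the block (SE 0.222, adjusted p = 1.74e-17). Over 26 alternatives the adjusted p ran from 5.09e-33 to 0.505, and Hcn2 passed with the block whichever WT library was left out. The null libraries held 83.4 and 127 CPM in cortex and 16.4 and 51.1 in hippocampus. Other Mog-positive cells showed the same order (168 to 339 and 39.6 to 59.7 CPM in WT), and interneurons did not, with 33.0 to 46.2 in cortex and 28.7 to 56.7 in hippocampus. Within the high tertile of Opalin cells, Hcn2 was at 299, 294 and 200 CPM in the 3 WT cortex libraries and at 37.3 and 68.0 in WT hippocampus replicates 1 and 3.

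Of 12 ion channel, transport and metabolic support genes tested, Hcn2 and Kcna1 passed with the block, both lower in hippocampus as were 0.412% of all genes, 4 had a positive change, and the median was -0.17 beside 0.01 over all genes. Pex5l (chromosome 3, 32949408 to 33143247), singled out after its values were seen because its protein (TRIP8b) is an auxiliary subunit of HCN channels, was at 276, 351 and 166 CPM in WT cortex and 94.4, 137 and 68.8 in WT hippocampus. The groups did not overlap, nor did the null libraries, at 167 and 138 in cortex and 104 and 91.5 in hippocampus. Its log2 change was -1.43 (adjusted p = 1, edgeR) and -1.41 with the block (SE 0.192, adjusted p = 5.21e-08). Kcna1 (chromosome 6, 126640397 to 126646384), a voltage-gated potassium channel best known at the juxtaparanode, was at 1016, 1176 and 1127 CPM in WT cortex and 652, 509 and 604 in WT hippocampus, again without overlap. Null cortex held 1195 and 998 and null hippocampus 880 and 820 CPM, and the log2 change in WT with the block was -0.90 (SE 0.180, adjusted p = 0.000653, edgeR; adjusted p = 1 without it).

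Higher in hippocampus with the block were, in order of size, Tubb2b, Gucy1a3, Sparc, Cxcl12 and Npb. Cxcl12 (chromosome 6, 117168535 to 117181367) was at 43.8, 116 and 115 CPM in WT cortex and 106, 414 and 209 in WT hippocampus, so that the groups overlapped through the replicate 1 libraries while each pair rose. Null cortex held 13.9 and 104 and null hippocampus 162 and 188 CPM, with no overlap, although the 13.9 is 1 UMI of null cortex replicate 1. The log2 change in WT with the block was 1.27 (SE 0.202, adjusted p = 5.52e-06, edgeR). Gucy1a3, a subunit of the nitric oxide receptor, was at 10.7, 41.4 and 56.8 against 37.6, 98.8 and 168 CPM (log2 change with the block 1.54). Npb, which encodes neuropeptide B, was at 19.2, 39.4 and 46.4 in WT cortex and 47.7, 95 and 110 in WT hippocampus, with all hippocampal libraries above the cortical ones, as for 2.40% of genes (log2 change with the block 1.26). Sparc, a matrix glycoprotein, was at 15 to 35.5 CPM in WT cortex and 36.6 to 79.8 in WT hippocampus.

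**Figure D4:**
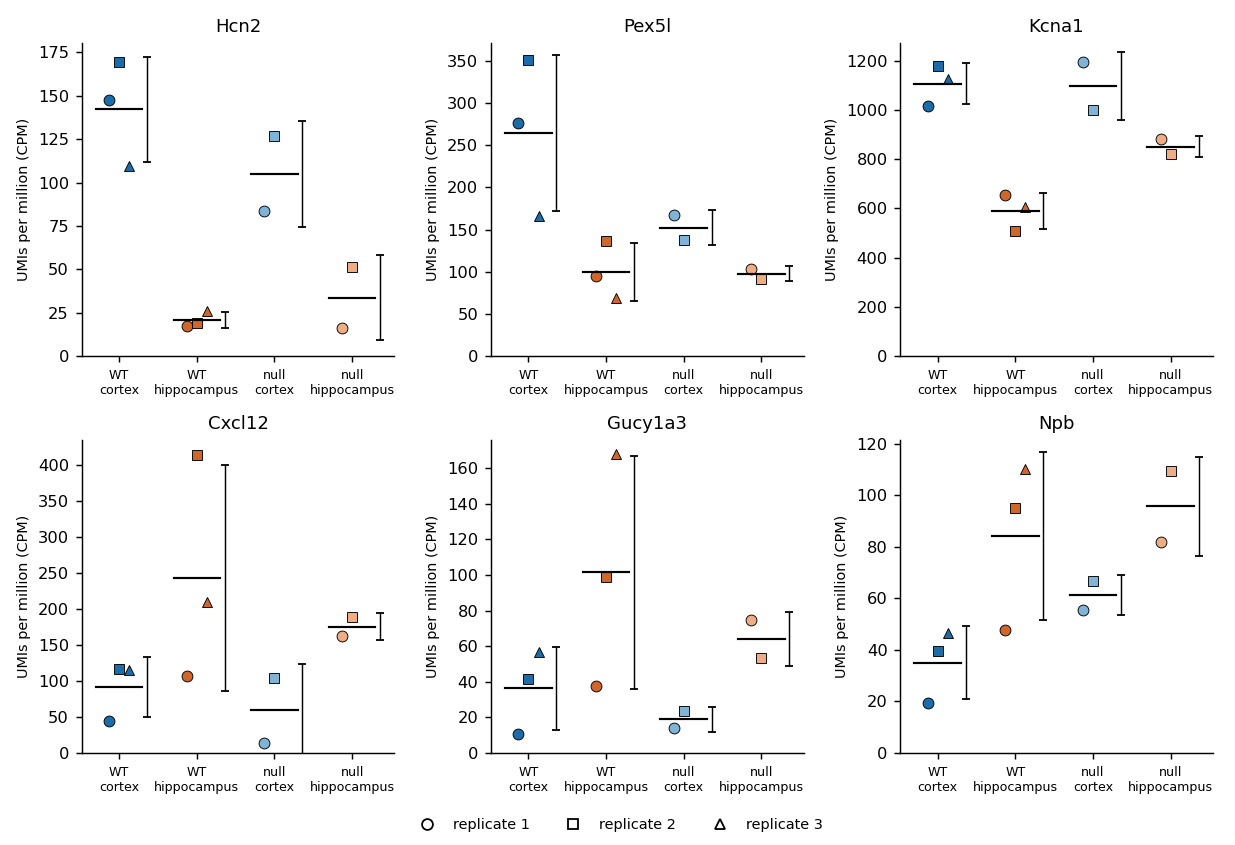
Levels of 6 genes in Opalin cells, in CPM; each point is 1 library, the line the group mean and the bar its SD, drawn from 0 where it would pass below. Hcn2, Pex5l and Kcna1 are lower in every hippocampal library than in every cortical one of the same genotype, and Cxcl12, Gucy1a3 and Npb are higher in hippocampus within each replicate. In null cortex replicate 1, Cxcl12 and Gucy1a3 rest on 1 UMI each.

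Of the largest falls in hippocampus with the block, Npy, Sst and Atp1b1 are genes that interneurons express strongly. Sst was at 51.3, 59.1 and 86.4 CPM in Opalin cells of WT cortex and 8.58, 7.60 and 16.1 in WT hippocampus, against 9560 to 10697 and 5382 to 7008 in interneurons of the same libraries. Npy was at 45.3 to 55.6 CPM in WT cortex and 2.78 to 11.4 in WT hippocampus, and Syt1, a synaptic vesicle gene that also passed, at 13.9 to 49.2 and 3.79 to 22.8. The summed interneuron markers given above moved the same way. In null libraries Sst was at 13.9 and 35.9 CPM in cortex and 189 and 63.3 in hippocampus, where the 13.9 is 1 UMI of null cortex replicate 1, and Npy at 0 and 60.5 against 47.4 and 31.4, which overlapped. The part of interneuron RNA in these genes was not tested. Besides Hcn2, the remaining one, the matrix proteoglycan gene Spock1, was low in both regions (9.60 to 20.3 and 1.37 to 7.60 CPM). Without cells that held 5 or more UMIs of markers of other cell types, 22 genes passed with the block, all of them among the 42. They held Hcn2, Pex5l, Kcna1, Cxcl12, Gucy1a3, Npb, Sparc and Qdpr and also Sst, Npy, Atp1b1 and Meg3, while Tubb2b, Spock1, Hapln2, Glul, H2-D1 and Sox4 no longer passed. The count depended on single libraries: 67 genes passed without WT hippocampus replicate 2, 18 without WT cortex replicate 2, 8 and 10 without replicate 1 of cortex or hippocampus, and 1, Hcn2, without replicate 3 of either. Of these fits with a library left out, Kcna1, Cxcl12, Sparc and Qdpr passed only in the one without WT hippocampus replicate 2, Pex5l and Npb only in those without that library or WT cortex replicate 2, and Gucy1a3 in those without either of these or WT hippocampus replicate 1.

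The counts by gene group stand beside the 0.558% of all genes that passed between the regions (0.146% higher and 0.412% lower in hippocampus). A gene that missed the threshold is not shown to be unchanged. With the block, 0 of 17 genes of sphingolipid and fatty acid synthesis and 0 of 21 of cholesterol synthesis passed, with median log2 changes of -0.01 in each beside 0.01 over all genes, and 0 of 15 lineage transcription factors passed (median 0.13). Of 22 genes of compact and structural myelin 1 passed, Hapln2, which was lower in hippocampus (median of the group -0.08). Of 15 late mature genes 3 passed, Qdpr, Glul and H2-D1, all lower in hippocampus, and the group's median was -0.51. Qdpr, which recycles tetrahydrobiopterin, was at 1473, 1430 and 755 CPM in WT cortex and 909, 429 and 450 in WT hippocampus. Of 14 newly formed oligodendrocyte genes 0 passed, with a median of 0.51, and of 4 precursor genes 1 passed, the transcription factor Sox4, at 17.1 to 35.5 CPM in WT cortex and 52.5 to 91.2 in WT hippocampus. Of 6 glutamate receptor genes 0 passed with the block, and without it no gene of any list did.

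Whether a regional difference was larger in Opalin cells than in the other Mog-positive cells was tested within the 6 WT libraries, with library as a block. By edgeR 5 of 9633 genes passed (0.0519%). For Spock3, a testican, Ldhb, a lactate dehydrogenase subunit, and Plin3, a lipid droplet protein, the hippocampus minus cortex change was more positive in Opalin cells (0.0311%), and for Ninj1, an adhesion protein, and Gsto1, a glutathione transferase, more negative (0.0208%). Spock3 was at 41.7, 33.5 and 25.6 CPM in Opalin cells of WT cortex and 87.8, 45.6 and 41.8 in WT hippocampus. In the other Mog-positive cells it was at 164, 168 and 123 in cortex and 110, 99.7 and 63.4 in hippocampus, so the order of the regions was turned between the classes. The log2 difference was 1.67 (SE 0.225, adjusted p = 0.00204, edgeR). Ldhb overlapped between regions in Opalin cells (132 to 162 and 98.8 to 205 CPM) and did not overlap in the others (324 to 357 and 112 to 215). The count was 0 without WT cortex replicate 1 or 2, 12 without replicate 3, 1 without WT hippocampus replicate 1 and 25 and 23 without replicates 2 and 3. Hcn2 was not among the 5.

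Null and WT Opalin cells were compared within each region, with all 4 groups in 1 model. By edgeR 0 of 8455 genes passed in hippocampus, with 127 at an unadjusted p under 0.05, and DESeq2 called 3, Scrg1, Sgk1 and Sst. In cortex 0 of 8455 passed, with 121 at an unadjusted p under 0.05 and 0 by DESeq2. With the replicate number as a block 24 genes passed in hippocampus (percent_called 0.284%), 18 higher (0.213%) and 6 lower (0.0710%) in null cells. In cortex 6 passed (0.0710%), 3 higher and 3 lower (0.0355% each). The 5 genes called in both regions were Itgad, Scrg1 and Mgp, higher in null cells, and Lars2 and Gm26917, lower. The 2 comparisons have no library in common, although the model shares its spread and its block across regions. Both regions were dissected from brain slices of the mice, so the comparisons can also share animals, sessions and processing days. The 5 genes are thus not an independent repeat across regions.

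Sgk1, Scrg1 and Itgad, singled out after their values were seen, were higher in all 4 null libraries than in all 6 WT ones. The share of all genes separated this way over both regions was not counted, and shares within each region are given below. Sgk1 (chromosome 10, 21882184 to 21999903), a kinase induced by glucocorticoids and by cell stress, was at 50.2, 106 and 44.8 CPM in WT cortex and 27.0, 60.8 and 25 in WT hippocampus. It was at 320 and 231 CPM in null cortex and 219 and 210 in null hippocampus. The groups did not overlap in either region, which held for 7.56% of genes as higher in null hippocampus (6.47% as lower) and 8.11% as higher in null cortex (8.56% as lower). The mean was 5.71-fold higher in null hippocampus, at a log2 change of 2.73 (SE 0.443, adjusted p = 0.0592, edgeR) or 2.52 with the block (SE 0.357, adjusted p = 0.000290). In cortex it was 4.10-fold higher, with a log2 change of 2.01 (adjusted p = 1) or 1.75 with the block (adjusted p = 0.0424, edgeR), which missed the threshold. Other Mog-positive cells were at 64.1 to 152 CPM in WT and 121 to 345 in null libraries, and interneurons at 27.5 to 33.5 and 18.0 to 39.9. Microglia held 39.9, 462 and 290 CPM of Sgk1 in WT cortex and 0 and 208 in WT hippocampus replicates 1 and 3. In replicate 2 of null cortex and null hippocampus they held 541 and 652 CPM. Oligodendrocyte precursors held 35.1 to 96.3 CPM in WT libraries and 186 and 115 in replicate 2 of null cortex and hippocampus. In null hippocampus replicate 1, with 11 precursors, the value was 0. Signs of cell quality also differed: 2578 of 2898 cells of null cortex replicate 2 and 4055 of 4436 of null hippocampus replicate 2 passed the cell limits, against 3830 of 3851 and 4599 of 4600 in WT replicate 2 of cortex and hippocampus. Malat1, a nuclear RNA, was at 51564 and 53373 CPM in Opalin cells of these null libraries, at 142050 and 119430 in replicate 1 of null cortex and hippocampus, and at 83563 to 229630 in WT libraries. Their part in the genotype differences was not tested.

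Scrg1 (chromosome 8, 57455923 to 57477585), a small secreted protein gene, was at 41.7, 27.6 and 24 CPM in WT cortex, 50.5, 45.6 and 51.7 in WT hippocampus, 153 and 161 in null cortex and 424 and 140 in null hippocampus. All null libraries lay above the WT ones, and null hippocampus replicate 1 lay far above the rest. The summed astrocyte markers were also highest in that library (767 CPM, against 29.6 to 125 in the others), and their part in Scrg1 was not tested. The log2 change with the block was 2.42 in hippocampus (SE 0.374, adjusted p = 0.000711, edgeR) and 2.56 in cortex (SE 0.408, adjusted p = 0.00299), with adjusted p = 0.10 and 1 without it. Oligodendrocyte precursors held 315 to 717 CPM of Scrg1 in WT hippocampus, above the WT Opalin cells there.

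Itgad (chromosome 7, 128154376 to 128223816), an integrin alpha subunit known from leukocytes, was at 41.7, 55.2 and 73.6 CPM in WT cortex, 48.5, 38.0 and 82.9 in WT hippocampus, 181 and 166 in null cortex and 179 and 170 in null hippocampus. The 4 null libraries were close to each other and above all WT ones. The log2 change with the block was 1.91 in hippocampus (SE 0.302, adjusted p = 0.000890, edgeR) and 1.88 in cortex (SE 0.332, adjusted p = 0.00978). Without the block adjusted p was 0.482 and 1. Other Mog-positive cells held 8.13 to 22.3 CPM in WT and 17.2 to 86.9 in null libraries, interneurons at most 0.861, and microglia and precursors 0.

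**Figure D5:**
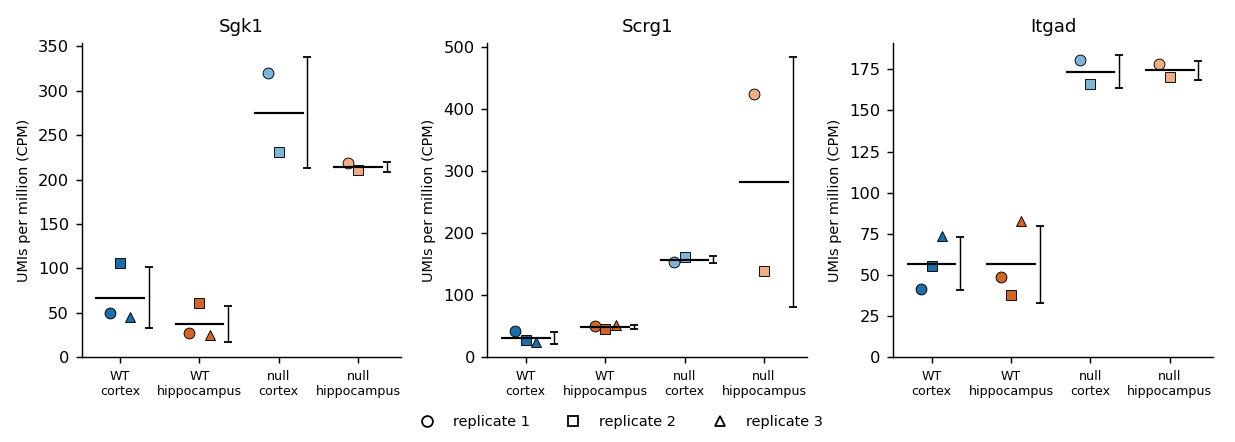
Sgk1, Scrg1 and Itgad in Opalin cells, in CPM; each point is 1 library, the line the group mean and the bar its SD. The 4 null libraries lie above the 6 WT libraries for each gene, and Scrg1 of null hippocampus replicate 1, at 424, is far from the other null libraries.

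Of the 5 largest rises in null hippocampus with the block, Mlc1, Sparcl1 and Apoe are genes of astrocytes, and of the hippocampal libraries only null replicate 1 was high in them. Apoe was at 665 CPM there, 18.6 in replicate 2 and 7.60 to 32.6 in WT hippocampus, and Sparcl1 at 118, 7.47 and 4.04 to 7.60. The summed astrocyte markers stood apart in the same library, and their part in the count was not tested. The other 2 were Sst and the cell-cycle inhibitor gene Cdkn1a, at 69.2 and 4.73 CPM in null and 2.40 to 7.60 in WT hippocampus. Without cells that held 5 or more UMIs of markers of other cell types, 12 of the 24 passed, among them Sgk1, Scrg1, Itgad, Sst and Cdkn1a but not Apoe, Sparcl1 and Mlc1, and in cortex 4 passed, without Itgad.

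The 6 falls were Xist, Mir6236, Gm26917, Lars2, 1700047I17Rik2 and Fos. Fos, an early response gene that handling of cells can induce, was at 1.26, 479 and 0.343 CPM in WT hippocampus and 0 and 119 in null hippocampus, and at 0, 96.5 and 0 in WT and 0 and 30.2 in null cortex. It was thus high in the replicate 2 libraries of every group (log2 change with the block -2.11, adjusted p = 0.00369, edgeR), and the part of handling in the genotype calls was not tested. Xist is the RNA of the inactive X chromosome in females. It was at 796, 0 and 554 CPM in WT hippocampus and 0 and 0.305 in null hippocampus. In cortex it was at 506, 0 and 250 CPM in WT and 125 and 0.378 in null libraries. The sex make-up of the pools thus differed between libraries, and in hippocampus it went in part with genotype. Its part in the genotype calls was not tested. Xist also differed between cortex and hippocampus of null replicate 1, so these libraries may not hold the same mix of animals. Lars2 and Gm26917 were high in the replicate 2 libraries of WT mice (209 and 195 CPM in cortex, 304 and 627 in hippocampus), with Lars2 at 2.14 to 90.4 CPM in the other WT and 0 to 22.7 in null libraries. Gm21971, the remaining fall in cortex, was at 3.21, 63.0 and 11.2 CPM in WT and 0 and 7.56 in null cortex (log2 change with the block -3.09). Mgp, matrix Gla protein, was at 144, 88.6 and 637 CPM in WT cortex, 45.4, 15.2 and 327 in WT hippocampus, 1084 and 1065 in null cortex and 155 and 528 in null hippocampus, and overlapped between genotypes in hippocampus.

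The counts moved with single libraries. In hippocampus, 11 genes passed with the block without null hippocampus replicate 1 and 7 without WT hippocampus replicate 1, and Sgk1, Scrg1 and Itgad were in neither set. There were 43 without null hippocampus replicate 2, 10 without replicate 3 of either WT region (Itgad lost) and 37 without WT hippocampus replicate 2. In cortex, 2 passed without WT cortex or WT hippocampus replicate 3, 15 without WT hippocampus replicate 2, 3 and 0 without null cortex replicate 1 or 2 and 21 without null hippocampus replicate 2. With a library left out, the cortical call of Itgad held only without replicate 2 of WT or of null hippocampus, and that of Scrg1 was lost without WT cortex replicate 2 or 3, WT hippocampus replicate 3 or null cortex replicate 2. With only the 2 groups of a region in the model, Scrg1 and Itgad passed in neither region and Sgk1 passed in hippocampus. Animals were pooled and each group had 2 or 3 libraries, so the tests measure the spread between libraries of pooled animals and not between animals.

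By list, no gene of myelin, myelin lipid or cholesterol synthesis, lineage factors, newly formed oligodendrocytes, precursors or glutamate receptors passed in either region with or without the block. Of all 8455 genes, only 24 passed in hippocampus and 6 in cortex with the block. Missing the threshold does not show a gene to be unchanged. With the block the median log2 change of 22 myelin genes was 0.24 in hippocampus and 0.08 in cortex, of 21 cholesterol genes 0.16 and 0.14, and of 9 glutamate receptor genes -0.56 and -0.70, beside -0.03 and -0.06 over all genes. The only calls in lists of oligodendrocyte genes or ion transport were Apoe and Slc1a2 in hippocampus, both genes of astrocytes that were high in null hippocampus replicate 1 (665 and 233 CPM). Of 7 interneuron markers 3 passed in hippocampus, Sst, Npy and Snap25, all higher in null cells, beside 0.213% of all genes. Of 5 astrocyte markers 2 passed there, Slc1a2 and Clu, which was at 158 CPM in null hippocampus replicate 1 and 7.17 in replicate 2. Of 12 dissociation and early response genes 1 passed in hippocampus, Fos, which was lower in null cells, as were 6 of all 8455 genes. In cortex 0 of these genes passed, beside 3 of all 8455 genes higher and 3 lower.

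The difference between the genotype changes of the 2 regions was tested as an interaction. By edgeR 0 of 8455 genes passed, with 47 at an unadjusted p under 0.05, and DESeq2 called Sst. With the block 2 passed (0.0237%), Sst with a log2 difference of 4.15 and Atp1b1 with 4.29, the interneuron-rich genes described above. For Sgk1, Scrg1 and Itgad the interaction was not called in either fit.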

How the data were processed

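UMI counts per gene and cell were deposited by the authors as 4 sparse matrices, made with Cell Ranger (2.1.1 in the submitters' processing notes, 3.0.2 in the file headers) on mm10, its gene models lengthened by 4 kb at their ends, and were not normalised. Libraries were told apart by barcode suffix, and suffixes were assigned to replicates by the cell numbers the methods give. Cells were kept as stated in the report, and doublets were not removed: Scrublet (scanpy 1.11.5, expected rate 0.06) marked 402 cells, 22 of them Opalin cells, and leaving these out is among the alternatives. Counts of Opalin cells were summed per library (sums of under 10 cells left out, 71947 to 6556518 UMIs) and tested with edgeR 4.0.16 in R 4.3.3 (TMM, filterByExpr, quasi-likelihood test, Benjamini-Hochberg adjustment), with DESeq2 1.42.0 as an alternative. CPM are those sums scaled to their total. Shares were compared by two-sided exact permutation tests over libraries (scipy 1.17.1).

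Replicate numbers were taken to pair libraries, since a number goes with a chemistry in the methods, and because same-numbered WT cortex and hippocampus libraries deviated together (r = 0.728, 0.540 and 0.296 over 7534 genes, against -0.561 to 0.141 for other pairs). The replicate 1 minus 2 difference correlated between all groups (r = 0.144 to 0.608 over 8460 genes), so the block was also used for null against WT. There it rests on 2 pairs and on chemistry. By the methods, WT or null mice were processed on consecutive days, so same-numbered WT and null libraries need not share a session. Genotype may thus go with processing day, whose part was not tested.

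Named genes were the markers, up to 4 of the most abundant genes per list and every list member that passed, and the 5 largest rises and falls among passing genes per comparison or, as a description, per neighbouring class; others are said to be chosen after their values were seen. Of the genes this rule names, 2 are not reported here. The 18 lists (243 of 246 genes found) and the Opalin cells were chosen with earlier results of these data known. Alternatives were DESeq2, library-size scaling, no filter on low counts, other limits on Opalin, Ptgds and cell quality, thinning every cell to 2000 UMIs, the block, and each library left out. Removal of cells with 5 or more UMIs of other cell types' markers, the block fits with a library left out and the block fits on 2 groups were added after seeing the data. The fits were tested on simulated data. Coordinates are of GENCODE vM21 (GRCm38).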

Additional observations from a re-analysis of the deposited data

Results flagged for a closer look

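For 5 genes the WT hippocampus minus cortex change differed between Opalin cells and the other Mog-positive cells by edgeR's test of the difference itself, with n = 3 libraries per region and both classes taken from the same libraries. The log2 difference was 1.67 for Spock3, 1.62 for Plin3 and 1.18 for Ldhb, and it was -1.27 for Ninj1 and -1.69 for Gsto1.

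Plin3 was at 37.4, 39.4 and 11.2 CPM in Opalin cells of WT cortex and 42.7, 19 and 22.9 in WT hippocampus, against 198, 170 and 113 and 74.3, 42.3 and 54.3 in the other cells (adjusted p = 0.0072, edgeR). Ninj1 was at 129 to 184 CPM in cortical and 129 to 250 in hippocampal Opalin cells, against 53.7 to 106 and 88.6 to 322 in the others. Gsto1 was at 33.5 to 125 and 19 to 55 CPM, against 40.5 to 125 and 47.9 to 250. The other Mog-positive cells mix 4 classes, whose make-up differs between libraries, and its part in these differences was not tested. None of the 5 passed without WT cortex replicate 1 or 2.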

How the results depend on the processing

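The exact tests of shares could not go below 0.1 and say nothing of stability. Over single libraries left out, the differences in the share of kept cells ran from -0.702 to 15.1 points for region, -5.05 to 10.8 for null in hippocampus and 0.572 to 5.55 for null in cortex, and those in the share of Mog-positive cells from -14.8 to 12.3, -2.04 to 25.1 and -4.11 to 22.8. Signs turned without WT hippocampus replicate 1 (region, -0.702), replicate 2 (null in hippocampus, -5.05 of kept and -2.04 of Mog-positive cells; region, 12.3 of Mog-positive cells) or replicate 3 (null in hippocampus, -0.375), without WT cortex replicate 1 (region, 6.44 of Mog-positive cells) and without null cortex replicate 1 (null in cortex, -4.11). The null difference of kept cells in hippocampus was also -0.375 with the replicate block and -0.527 without cells that held other cell types' markers. The causes were not tested.

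Between WT regions, 0 genes passed without the block, 3 by DESeq2, 10 with no filter on low counts, 42 with the replicate block and 22 with the block after removal of cells with other types' markers. With the block and a library left out, counts were 8, 18 and 1 without WT cortex replicates 1, 2 and 3 and 10, 67 and 1 without those of WT hippocampus. For null against WT in hippocampus, counts were 3 by DESeq2, 36 with no filter, 1 at an adjusted p under 0.05, 1 with Opalin of at least 5 UMIs, 10 without null hippocampus replicate 2, 24 with the replicate block, 12 with the block and marker-bearing cells removed, and 23 with the block on the 2 groups. With the block they were 30, 30 and 10 without WT cortex replicates 1 to 3, 7, 37 and 10 without WT hippocampus 1 to 3, 21 and 21 without null cortex 1 or 2, and 11 and 43 without null hippocampus 1 or 2. In cortex they were 8 with no filter, 6 with the replicate block, 4 with marker-bearing cells removed and 6 on the 2 groups, and with single libraries left out 8, 4, 2, 6, 15, 2, 3, 0, 8 and 21 in the same order. The interaction count was 1 by DESeq2, 6 with no filter, 1 after thinning to 2000 UMIs, 1 without null hippocampus replicate 2 and 2 with the replicate block, with or without marker-bearing cells, and 0 to 12 with the block and a library left out (3 and 2 without WT cortex 1 and 2, 1 and 7 without WT hippocampus 1 and 2, 3 and 12 without null hippocampus 1 and 2). The class by region count of 5 was 13 by DESeq2, 2 with library-size scaling, 44 with no filter, 18 at an adjusted p under 0.05, and 0 to 25 with a library left out.

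Of all alternative values, 454 kept their direction and side of the threshold, 86 newly passed, 18 no longer passed, 63 moved and 9, all of them shares, changed sign. Null cortex replicate 1 (13 cells) and WT hippocampus replicate 2 (64 cells, shallow) limit what low genes can show.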

Other observations

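A further 2 genes linked to glucocorticoid response were looked at after the values of Sgk1 were seen, with no list fixed for it. Fkbp5, a co-chaperone of the glucocorticoid receptor, was at 1.07, 5.91 and 3.20 CPM in WT cortex, 6.81, 11.4 and 5.14 in WT hippocampus, 27.8 and 14.7 in null cortex and 29.1 and 18.6 in null hippocampus. In null cortex replicate 1 this rests on 2 UMIs and in WT cortex on 1, 3 and 4, so that the cortical values cannot be read. In hippocampus the null libraries lay above the WT ones, as for 7.56% of genes. Fkbp5 did not pass (adjusted p = 0.227 in hippocampus and 0.318 in cortex with the block, edgeR). Tsc22d3, another transcript induced by these hormones, was at 121 to 149 CPM in WT cortex, 83.6 to 223 in WT hippocampus, 306 and 257 in null cortex and 200 and 286 in null hippocampus, and overlapped between genotypes in hippocampus.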
